A study of Mus musculus with 16 samples.

Results

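Protocadherins and cadherins were followed in mouse neural stem and progenitor cells that had lost KAT7 (HBO1), a histone lysine acetyltransferase. Members were all genes with a symbol that starts with Pcdh, or that is Cdh followed by a number, and with at least 10 counts in 4 or more of the 16 libraries. This kept 79 of 93 genes with such symbols, among 27179 genes counted. They are 56 clustered protocadherins (13 alpha, 21 beta and 22 gamma), 11 non-clustered protocadherins and 12 cadherins, of which 2 are type I (Cdh2 and Cdh4), 9 are type II and 1 is the anchored cadherin Cdh13. A filter on low counts left 78 of the 79 for testing, since Cdh7 did not pass it. Cdh7 was also nearest to the limit of the rule, with 10 or more counts in 4 libraries and 134 counts in all, and just outside it lay Cdh12 with 3 such libraries and 289 counts.

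The cells were grown as neurospheres from the cortex and ganglionic eminences of E14.5 foetuses (age in days of gestation), and the labels do not say whether the regions were kept apart. Null cells had the genotype Kat7lox/lox NesCreT/+ and intact cells Kat7+/+ NesCreT/+, so that both carried the Nestin-driven Cre transgene and no group without Cre was included. Isolates from 4 foetuses per genotype gave libraries either of proliferating cells (3 passages, then 3 days) or of cells that differentiated for 3 days from passage 3, plated on laminin in cortical neuron medium. The 4 groups of 4 libraries are called intact proliferating, null proliferating, intact differentiating and null differentiating, and the same foetuses may have given libraries of both conditions. The comparisons ask how loss of KAT7 changed mRNA levels in each condition, how mRNA levels changed upon differentiation in each genotype, and whether that response differed between the genotypes.

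Cadherins are calcium-dependent adhesion proteins of the cell surface. Type I and type II cadherins join cells of like kind and hold their junctions through catenins and actin, and N-cadherin (Cdh2) holds together the junctions of the neuroepithelium. Clustered protocadherins are encoded by neighbouring alpha, beta and gamma gene clusters, in which each variable exon has a promoter of its own. Promoter choice there depends on the DNA-binding protein CTCF, on cohesin and on DNA methylation, and it gives single neurons different sets of surface proteins that bind their own kind and serve self-recognition. In the alpha and gamma clusters every variable exon is spliced to the same constant exons, whereas beta genes have no constant exons. C-type genes (Pcdhac1, Pcdhac2, Pcdhgc3, Pcdhgc4 and Pcdhgc5) lie at the ends of the alpha and gamma clusters and are expressed more evenly between neurons. Non-clustered protocadherins have single loci, sort cells and axons, and signal to the actin cytoskeleton.

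Libraries held 16.8 to 47.9 M counts, of which the members took 0.191 to 0.313%. Levels are given as CPM, counts per M counts of the scaled library, with SD over n = 4 libraries. Kat7 was at 139 ± 5.59 CPM in intact proliferating and 103 ± 3.08 CPM in intact differentiating cells, against 8 and 1 counts in all in the null libraries of the same conditions. Genes called are those with an adjusted p under 0.05 in edgeR's quasi-likelihood test over 15177 genes, and every adjusted p below comes from that test unless another is named. Intact proliferating replicate 1, null proliferating replicate 4 and intact differentiating replicate 1 often stood apart from their groups in member levels.

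Marker lists of neural cell types differed between the groups. Summed levels of 12 neuron markers were 1299.5 to 1512 CPM in intact and 1395 to 1656 CPM in null proliferating cells, 2437 to 2855 CPM in null differentiating cells, and 2324 to 3494 CPM in 3 intact differentiating libraries against 6623 CPM in replicate 1. Markers of the oligodendrocyte lineage (12 genes) summed to 3082 to 3709 CPM in intact against 1834 to 2333 CPM in null proliferating cells, and to 4673 to 10003 CPM in intact against 2368 to 2994 CPM in null differentiating cells. In both genotype comparisons 9 of these 12 fell and none rose. Astrocyte markers (10 genes) ran the other way, at 2037 to 3179 CPM in intact and 5811 to 9193 CPM in null differentiating cells. Neuron markers fell in 4 and rose in none of 12 in null proliferating cells, and fell in 7 and rose in 1 in null differentiating cells. Of all genes 19.7% fell and 38.6% changed in proliferating cells, and 22.0% fell and 46.4% changed in differentiating cells. The 4 of 12 neuron markers called in proliferating cells are below the share that changed, and their summed level was not lower there. Fibroblast markers reached 161 CPM in intact differentiating replicate 1. Endothelial markers stayed at or below 4.82 CPM and microglial ones at or below 0.675 CPM, with Aif1, Cx3cr1 and Ptprc at 0 in both proliferating groups. Epithelial markers reached at most 1.25 CPM, mural ones 168 CPM and ependymal ones 120.3 CPM. Neural stem and progenitor markers (8 genes) summed to 6812 to 7493 CPM in proliferating libraries, 2596 to 3462 CPM in intact and 4197 to 5229 CPM in null differentiating ones. The part of these cell types in the member results was not tested, and in bulk libraries fewer cells of a type and less RNA per cell cannot be told apart.

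Promoters could be shown for members outside the clusters. RefSeq promoters in GRCm38.p6, the assembly that mm10 names, were matched for 16 members (19 promoters of 300 bases, 250 before and 50 after the start). The following 4 belong to a pair of genes that fell in null cells of both conditions (Pcdh8 and Cdh8) and a pair that rose in both (Pcdh10 and Cdh22). They are written 5′ to 3′ on the strand of the gene, with each CG dinucleotide in capitals.
Pcdh8, chr14:79771263-79771562, minus strand: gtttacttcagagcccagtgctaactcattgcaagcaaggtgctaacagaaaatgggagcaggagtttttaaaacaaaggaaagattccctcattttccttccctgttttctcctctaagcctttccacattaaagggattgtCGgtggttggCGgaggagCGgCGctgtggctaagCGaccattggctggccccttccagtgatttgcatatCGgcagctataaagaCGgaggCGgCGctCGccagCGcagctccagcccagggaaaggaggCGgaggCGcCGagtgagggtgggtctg
Cdh8, chr8:99416422-99416721, minus strand: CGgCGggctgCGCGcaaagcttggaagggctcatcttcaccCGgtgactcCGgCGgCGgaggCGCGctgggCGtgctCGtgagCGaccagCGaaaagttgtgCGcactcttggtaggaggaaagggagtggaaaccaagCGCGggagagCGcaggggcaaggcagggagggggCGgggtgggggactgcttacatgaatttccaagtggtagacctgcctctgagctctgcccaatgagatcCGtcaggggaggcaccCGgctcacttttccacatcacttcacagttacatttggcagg
Pcdh10, chr3:45378148-45378447, plus strand: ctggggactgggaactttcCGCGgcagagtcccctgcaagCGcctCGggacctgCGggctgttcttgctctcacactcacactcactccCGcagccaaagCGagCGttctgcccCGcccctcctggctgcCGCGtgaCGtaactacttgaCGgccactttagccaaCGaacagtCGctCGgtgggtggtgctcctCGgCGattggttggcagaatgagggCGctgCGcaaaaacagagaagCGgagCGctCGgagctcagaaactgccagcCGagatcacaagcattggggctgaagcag
Cdh22, chr2:165234688-165234987, minus strand: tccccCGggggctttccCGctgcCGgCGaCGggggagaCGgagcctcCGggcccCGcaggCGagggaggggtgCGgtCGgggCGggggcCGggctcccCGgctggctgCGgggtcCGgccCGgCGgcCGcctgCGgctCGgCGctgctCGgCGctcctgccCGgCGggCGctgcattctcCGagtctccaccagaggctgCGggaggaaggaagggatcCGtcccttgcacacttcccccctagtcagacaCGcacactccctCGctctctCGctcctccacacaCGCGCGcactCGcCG
These windows hold 14, 21, 24 and 38 CG dinucleotides, against a median of 7 over all 32851 promoters in the table. The Cdh8 window lies inside the gene, which reaches position 99417666 on this minus strand, so its start is not the outermost annotated one. CG counts were 2 to 21 (median 8) in the 7 matched members that fell in null proliferating cells and 11 to 38 (median 21) in the 6 that rose. The 2 that were tested and not called there held 26 and 30. In differentiating cells the medians were 12.5 in the 6 that fell, 24 in the 3 that rose and 21 in the 6 not called. These differences were not tested. The letters CGCT, the core of an element known from clustered protocadherin promoters, occurred on either strand in 19 of 19 member promoters, and in 61.8% of all promoters. CGCT overlaps a CG by construction, so the counts are not separate features, and such a match is a description of the window only.

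Alpha protocadherins rose in null proliferating cells. Of 13 tested, 8 rose and none fell, where 19.0% of all genes tested rose and 38.6% changed in either direction. DESeq2 called 10 higher and none lower, and no alpha gene was lower at an unadjusted p under 0.05 in edgeR. In 8 of the 13 every null library lay above every intact one, as for 19.2% of all genes (39.0% lay apart in either direction). Log2 fold changes ran from -0.30 to 3.56 with a median of 1.92, against a median of -0.01 over all genes. Without intact proliferating replicate 4 the count was 5, and over all libraries left out in turn it was 5 to 11. The alpha locus spans 36930285 to 37188897 on chromosome 18 in GRCm38.

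Pcdhac1 was the alpha gene with the most separate groups. Its level was 0.630, 0.325, 0.368 and 0.270 CPM in intact and 3.66, 2.84, 3.12 and 2.35 CPM in null proliferating libraries, so that every null library lay above every intact one. The difference was 7.52-fold (log2 2.91 ± 0.27 SE, adjusted p = 2.0e-06). After differentiation it was still higher in all 4 null libraries (1.26 to 1.39 CPM against 0.484 to 0.859 CPM, log2 1.05 ± 0.25, adjusted p = 0.0032), the only alpha gene called there.

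Pcdhac2 made up most of the alpha signal in proliferating cells. Intact proliferating libraries had 19.8, 12.8, 13.8 and 12.3 CPM and null proliferating libraries 33.6, 28.8, 32.5 and 20.5 CPM, with no overlap (log2 0.97 ± 0.30, adjusted p = 0.017). Its share of alpha counts was 79.8 ± 6.37% in intact and 66.5 ± 4.90% in null proliferating cells, and 27.4 ± 2.14% and 20.7 ± 3.25% in intact and null differentiating cells.

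The 11 alternate alpha genes, Pcdha1 to Pcdha12 without Pcdha4, were close to silent in intact proliferating cells. Pcdha5 had 0.388, 0, 0 and 0.0900 CPM there (10 counts in all) and 0.872, 1.17, 1.498 and 2.07 CPM in null proliferating cells, where all 4 libraries were higher. This was a log2 fold change of 3.56 ± 0.88 (adjusted p = 0.0051), and 5.47 without intact proliferating replicate 1. Pcdha7 had 11 counts over the intact and 93 over the null proliferating libraries (log2 2.77 ± 0.72, adjusted p = 0.0072; 3.82 without the same library), again with no overlap. Pcdha8, Pcdha9, Pcdha10 and Pcdha11 rose by log2 1.03 to 1.97. Without intact proliferating replicate 1, Pcdha9 and Pcdha11 differed by 2.64 and 2.65 in place of 1.74 and 1.92. The summed level of the 11 alternate genes was 3.03-fold higher (11.2 against 3.70 CPM), with no overlap between libraries.

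In differentiating cells the alpha clusters of both genotypes were close in mean and unequal in spread. The summed alpha level was 54.9 ± 36.9 CPM in intact and 51.2 ± 3.42 CPM in null differentiating cells. The intact spread came from replicate 1 at 109 CPM, the library with the highest neuron marker level, whereas the mean of the other 3 was 36.9 ± 9.25 CPM. Only Pcdhac1 was called among 13 (24.3% of all genes rose and 22.0% fell, 46.4% in all). Without intact differentiating replicate 1, 3 alpha genes rose, and without this and intact proliferating replicate 1 together 6 rose.

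**Figure D1:**
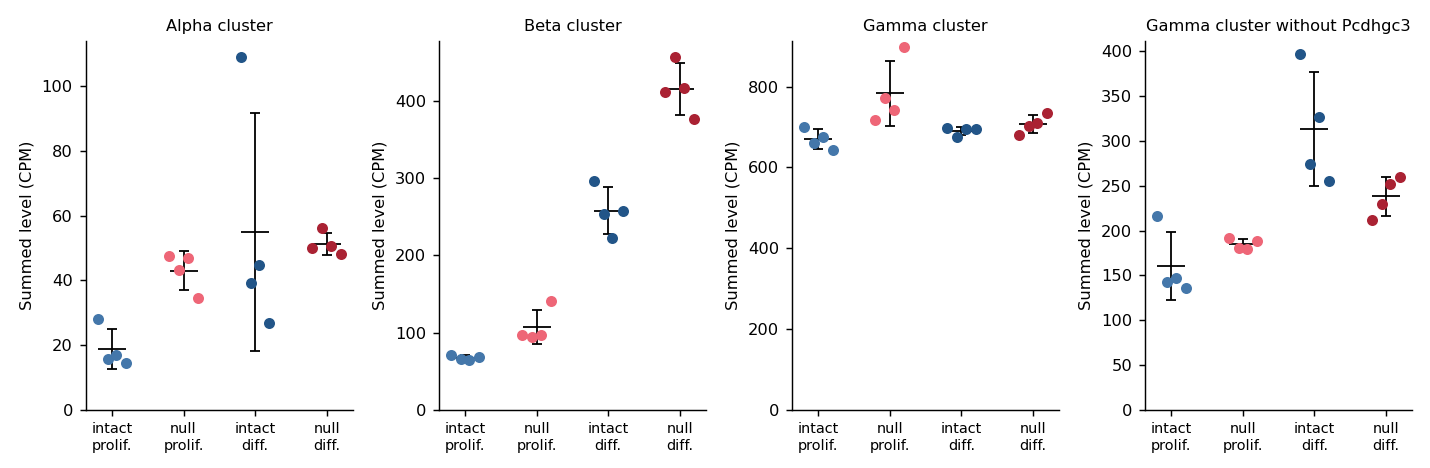
Summed level of each protocadherin cluster in CPM (vertical axes from 0) in the 4 groups (horizontal axes), with a point per library and the mean ± SD as bars. The 4 null libraries lie above the 4 intact libraries of their condition for the beta cluster, and intact differentiating replicate 1 stands at 109 CPM for the alpha cluster.

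Beta protocadherins rose in null cells of both conditions. In proliferating cells 15 of 21 rose and none fell, where 19.0% of all genes rose and 19.7% fell. Log2 fold changes ran from -0.21 to 2.22 with a median of 0.71. In differentiating cells again 15 rose and none fell, where 24.3% of all genes rose and 22.0% fell. Log2 fold changes there ran from -0.31 to 1.22 with a median of 0.64 (all genes 0.04). All null libraries lay above all intact ones for 11 and 17 beta genes. The same held for 19.2% and 24.9% of all genes, and 39.0% and 45.3% lay apart in either direction. DESeq2 called 15 and 17 higher and none lower, and no beta gene was lower at an unadjusted p under 0.05 in either condition. The differentiating count was 10 without intact differentiating replicate 3 and up to 18 without other libraries, and the proliferating count was 12 to 15. The locus lies at 37294840 to 37521419 of chromosome 18.

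Summed over the 21 beta genes, the level was 67.6 ± 2.96 CPM in intact and 107 ± 22.2 CPM in null proliferating cells, 1.58-fold. Null proliferating replicate 4 stood apart at 140 CPM, and the other 3 null libraries averaged 96.0 ± 1.77 CPM, above all intact libraries (65.1 to 71.2 CPM). After differentiation the sums were 258 ± 30.2 CPM in intact and 416 ± 33.2 CPM in null cells, 1.61-fold, and again the groups did not overlap.

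Pcdhb14 had 1.65, 2.44, 2.21 and 2.48 CPM in intact and 4.01, 4.99, 4.66 and 9.16 CPM in null proliferating libraries. The differentiating libraries had 10.7, 13.03, 9.44 and 13.9 CPM in intact and 24.7, 23.5, 21.2 and 23.4 CPM in null libraries. Null libraries were higher throughout, by log2 1.39 ± 0.24 (adjusted p = 0.00033) and 0.98 ± 0.21 (adjusted p = 0.0017). Pcdhb5 showed the same order, with a mean of 2.25 against 4.87 CPM in proliferating cells (log2 1.13 ± 0.29, adjusted p = 0.0069) and 11.3 against 26.4 CPM in differentiating cells (1.22 ± 0.27, adjusted p = 0.0017), without overlap in either condition.

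Pcdhb13 showed the largest beta difference in proliferating cells, at 0.217 to 0.414 CPM in intact and 0.907 to 2.15 CPM in null libraries (log2 2.22 ± 0.34, adjusted p = 0.00015). Pcdhb11 and Pcdhb17 were also called in both conditions, Pcdhb11 by log2 1.38 and 0.99 and Pcdhb17 by 0.93 and 0.71. In differentiating cells the Pcdhb11 call was lost without intact replicate 3 or null replicate 2 or 3 (adjusted p = 0.065 to 0.083). Pcdhb7 was higher by 0.99 ± 0.30 in proliferating cells (adjusted p = 0.018), where intact replicate 1 at 2.67 CPM overlapped the null libraries, and the call was lost without intact proliferating replicate 3 or 4 or null proliferating replicate 4 (adjusted p = 0.055 to 0.071). Pcdhb9 was not called in proliferating cells (0.89 ± 0.44, adjusted p = 0.12) and rose by 1.11 ± 0.35 in differentiating cells (adjusted p = 0.018; 0.053 without intact differentiating replicate 3 and 0.054 without null differentiating replicate 2). Pcdhb6 was the beta gene with an estimate below 0 in both conditions, -0.21 ± 0.35 and -0.31 ± 0.30, neither of which was called.

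Along the beta cluster the differences were of unequal size. The 7 genes Pcdhb16 to Pcdhb22 had median log2 fold changes of 0.48 and 0.44 in proliferating and differentiating cells, with 7 and 6 of them called. The medians were 0.71 and 0.85 for Pcdhb2 to Pcdhb8, and 0.89 and 0.98 for Pcdhb9 to Pcdhb15. These stretches were drawn for description and their difference was not tested.

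**Figure D2:**
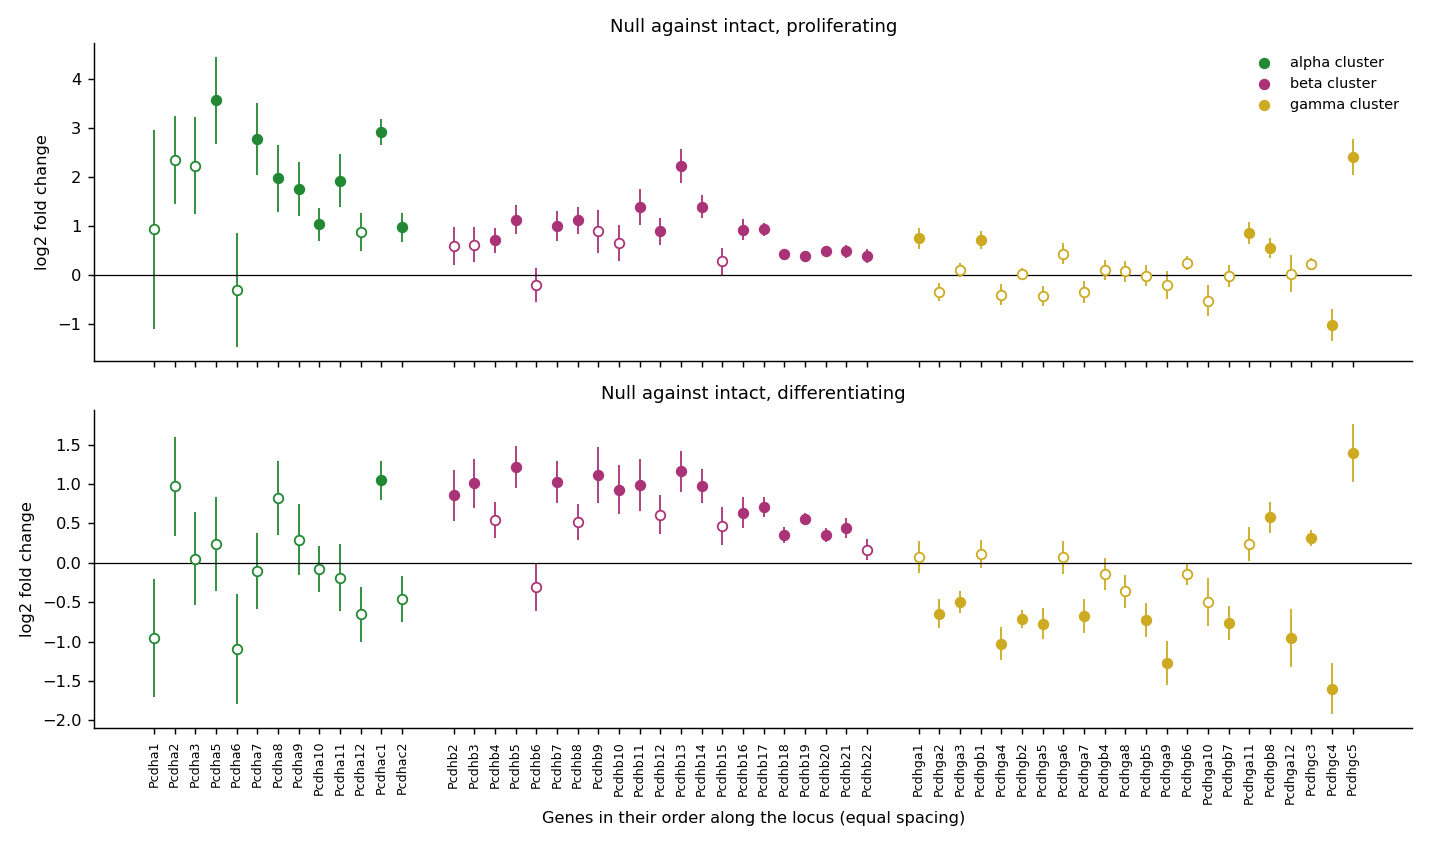
Log2 fold change of null against intact cells (vertical axes, bars are ± SE) for the 56 clustered genes in their order along the locus, in proliferating (top) and differentiating cells (bottom), with filled points for genes called at an adjusted p under 0.05. Alpha and beta points lie mostly above 0 in the top panel, and in the bottom panel beta points lie mostly above 0 and gamma A and B points mostly below.

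Gamma protocadherins divided by subfamily and condition. In proliferating cells 5 of 22 rose and 1 fell, with a median log2 fold change of 0.05, which is near the share of all genes that rose (19.0%) and below the share that fell (19.7%). In differentiating cells 3 rose and 11 fell, with a median of -0.50, where 24.3% of all genes rose and 22.0% fell. Only 1 rose without intact differentiating replicate 3 or with scaling by library size alone. Those that fell were 7 of 12 gamma A genes, 3 of 7 gamma B genes and Pcdhgc4. The count of 11 was 10 to 11 with any library left out. The gamma locus spans 37661775 to 37841873 of chromosome 18.

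Pcdhga9 had 9.90, 5.44, 7.30 and 4.41 CPM in intact and 2.75, 2.30, 2.90 and 3.25 CPM in null differentiating libraries. All null libraries were lower, by a log2 fold change of -1.27 ± 0.28 (adjusted p = 0.0017), whereas in proliferating cells the estimate was -0.20 ± 0.28 (adjusted p = 0.60). Pcdhga4 had 18.7, 14.9, 16.5 and 12.5 CPM in intact against 5.65, 8.46, 8.47 and 8.12 CPM in null differentiating libraries, also apart (log2 -1.03 ± 0.21, adjusted p = 0.0010). In proliferating cells Pcdhga1, Pcdhgb1 and Pcdhga11 rose by log2 0.75, 0.71 and 0.86, each with no overlap. For these 3 genes the estimates in differentiating cells were 0.07, 0.11 and 0.24, none of which was called. Summed over the 19 gamma A and B genes, levels were 292 ± 54.2 CPM in intact and 226 ± 20.2 CPM in null differentiating cells. These groups barely missed overlap (lowest intact library 244.9 CPM, highest null library 244.5 CPM). Without intact differentiating replicate 1 the intact mean was 267 CPM. Summed over all gamma genes but Pcdhgc3, the differentiating groups overlapped. In proliferating cells the gamma A and B sums were 147 ± 32.6 and 161 ± 7.15 CPM, with overlap.

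The 3 gamma C-type genes moved in different directions. Pcdhgc5 had 5.43, 2.27, 3.50 and 3.06 CPM in intact and 17.0, 13.5, 12.2 and 32.4 CPM in null proliferating libraries, every null library being higher (log2 2.40 ± 0.37, adjusted p = 0.00015). After differentiation it was at 1.41 to 3.61 CPM in intact and 4.63 to 8.32 CPM in null libraries (1.39 ± 0.36, adjusted p = 0.0058). Pcdhgc4, the neighbouring gene, which neurons need for survival, ran the opposite way. It had 15.5, 8.34, 6.17 and 7.92 CPM in intact and 4.88, 5.36, 5.16 and 3.43 CPM in null proliferating libraries. The log2 fold change was -1.02 ± 0.33 (adjusted p = 0.023), which was not called without intact proliferating replicate 1 (adjusted p = 0.089) or null proliferating replicate 4 (0.069). In differentiating cells Pcdhgc4 was at 8.99 to 29.4 CPM in intact and 5.94 to 6.93 CPM in null libraries (-1.60 ± 0.32, adjusted p = 0.00088).

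Pcdhgc3 was the member with the highest level per length in each group, at 109 ± 4.09, 128 ± 17.1, 80.6 ± 12.7 and 100.1 ± 1.63 CPM per kb of gene model in intact proliferating, null proliferating, intact differentiating and null differentiating cells. It took 76.2 ± 4.72% and 76.2 ± 2.38% of gamma counts in intact and null proliferating cells, 54.7 ± 8.85% in intact and 66.4 ± 2.14% in null differentiating cells. The genotypes did not differ by a call in proliferating cells (0.23 ± 0.11, adjusted p = 0.096). In differentiating cells it rose by 0.31 ± 0.11 (adjusted p = 0.024), a call lost without intact differentiating replicate 1 (0.065) or replicate 3 (0.056), and under scaling by library size alone (0.12).

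Shared exons limit the alpha and gamma values. Of the 13 alpha genes, the 11 with matched exons share 2860 to 2864 exonic bases in the GENCODE annotation, and the 22 gamma genes 2116 to 3157, within deposited gene lengths of 5206 to 5422 and 4480 to 5080 bases, and further gene models overlap the gamma exons. The sources used here do not say how constant exon reads were assigned. Pcdha1 had 0 counts in 3 of 4 intact proliferating libraries in which Pcdhac2 was at 12.3 CPM or more, so constant exon reads had not been added to every gene. Beta genes do not depend on constant exons, but Pcdhb12 overlaps another gene model, and Pcdhb21 and Pcdhb22 each share 455 exonic bases with protocadherin genes. Exons of Pcdha6, Pcdha7 and Pcdha12 also overlap other gene models, and Pcdhga10 has 0 exonic bases that lie in no other gene. Outside the clusters, exons of Pcdh7, Pcdh8, Pcdh10, Pcdh19 and Cdh8 overlap other gene models, whose reads cannot be told apart from theirs where strand is not known.

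The number of genes in use within a cluster was described by an effective number, the exponential of the Shannon entropy of count shares, which equals the number of genes if all contribute evenly. For the alpha cluster it was 2.46 ± 0.70 in intact and 3.92 ± 0.70 in null proliferating cells, and 9.01 ± 0.59 and 9.997 ± 0.63 in intact and null differentiating cells. For the beta cluster it was 13.8 ± 0.94, 14.8 ± 1.34, 17.5 ± 0.45 and 17.8 ± 0.13 in the same order. Libraries of the genotypes overlapped in both conditions for the alpha and the beta cluster. Proliferating alpha values, for instance, were 2.001 to 3.51 in intact and 3.33 to 4.90 in null libraries. For the gamma cluster it was 3.51 ± 0.72 and 3.42 ± 0.36 in intact and null proliferating cells, with overlap. In differentiating cells the gamma value was lower in null libraries, at 5.49 to 10.3 in intact and 4.54 to 5.29 in null libraries (means 7.499 and 4.95), without overlap. Thinned to a common number of counts, the alpha values were 2.44, 3.84, 8.82 and 9.80. These are means over many cells and say nothing of the sets used by single cells.

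Of the 11 non-clustered protocadherins, 5 rose and 4 fell in null proliferating cells, and 2 rose and 5 fell in null differentiating cells. Of all genes 19.0% rose and 19.7% fell in proliferating cells, and 24.3% and 22.0% in differentiating cells, so that 2 of 11 lies below the share that rose there. Without intact proliferating replicate 2, 3 or 4, or with scaling by library size alone, 3 rose in proliferating cells, since Pcdh9 and Pcdh10 were no longer called.

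Pcdh8, which takes N-cadherin off the synaptic surface in neurons, fell in both conditions. It had 11.3, 2.38, 1.89 and 1.89 CPM in intact and 0.837, 0.370, 0.416 and 0.227 CPM in null proliferating libraries. Differentiating cells had 159, 64.1, 89.7 and 43.2 CPM in intact and 9.76, 10.7, 9.75 and 8.47 CPM in null libraries. In neither condition did the groups overlap, and intact replicate 1 was the highest library in each. Log2 fold changes were -3.23 ± 0.70 (adjusted p = 0.0020) and -3.20 ± 0.52 (adjusted p = 0.00016), which are 9.41-fold and 9.21-fold lower. The proliferating difference was 4.42-fold without intact proliferating replicate 1. Its promoter, printed above, held 14 CG dinucleotides.

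Pcdh20 (chr14:88464743-88471396, minus strand) was close to absent from null cells. Intact libraries had 1.84, 0.920, 0.599 and 0.405 CPM while proliferating and 7.90, 2.46, 3.11 and 1.498 CPM while differentiating. Null proliferating libraries had no count, which makes the level at least 32.2-fold lower taking 3 counts as the floor of the group (adjusted p = 0.00039). Null differentiating libraries had 7 counts in all, 1.26% of the intact level (95% counting interval 0.502 to 2.61%, adjusted p = 3.4e-05). On the log2 scale this difference was -6.26, or -5.58 without intact differentiating replicate 1. Pcdh20 met the count rule through 7 libraries, all of them intact, so its membership lends no support to the difference.

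Pcdh15 (chr10:73096277-74649831, plus strand), the tip-link protocadherin of hair cells and in brain a gene of oligodendrocyte precursors, fell in proliferating cells. The libraries had 52.7, 19.3, 17.1 and 14.7 CPM in intact and 1.67, 1.23, 1.08 and 7.23 CPM in null proliferating cells. All null libraries were lower, with intact replicate 1 and null replicate 4 far above the rest of their groups. The log2 fold change was -3.11 ± 0.55 (adjusted p = 0.00046), or -2.50 without that intact and -4.26 without that null library. In differentiating cells the groups overlapped, at 57.9 to 89.0 CPM in intact and 35.5 to 69.8 CPM in null libraries (-0.49 ± 0.47, adjusted p = 0.42). Sums of the oligodendrocyte lineage markers were lower in null cells of both conditions, with values as given above.

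Pcdh19, whose human counterpart is mutated in a female epilepsy, fell in both conditions. It was at 21.7 to 26.5 CPM in intact and 9.37 to 12.001 CPM in null proliferating libraries (log2 -1.15 ± 0.15, adjusted p = 3.3e-05), and at 33.6 to 50.1 CPM in intact and 17.3 to 25.5 CPM in null differentiating libraries (-0.90 ± 0.15, adjusted p = 0.00015), with no overlap. Pcdh11x was called in differentiating cells, at 27.1 to 33.2 CPM in intact and 18.5 to 22.2 CPM in null libraries (-0.61 ± 0.12, adjusted p = 0.00069).

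Pcdh10, a protocadherin of axon growth, was higher in null cells. It had 257, 159.5, 155 and 160.0 CPM in intact and 250.1, 251, 259.5 and 244 CPM in null proliferating libraries, where intact replicate 1 lay within the null range. In differentiating cells it had 283, 396, 416 and 452 CPM in intact and 565, 619, 618 and 559.6 CPM in null libraries, which were all higher. The log2 fold changes were 0.46 ± 0.16 (adjusted p = 0.029) and 0.61 ± 0.15 (adjusted p = 0.0047). The first was lost under library size scaling (adjusted p = 0.098) and without any 1 of 6 proliferating libraries, the exceptions being intact replicate 1 and null replicate 4. Pcdh1 was 0.70 ± 0.12 higher in proliferating cells (adjusted p = 0.00044) and 0.35 ± 0.12 higher in differentiating cells (adjusted p = 0.026), where the groups overlapped and leaving out any of 5 differentiating libraries ended the call.

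Pcdh7 and Pcdh18 were higher in null cells only while these proliferated, as tested by the interaction below. Pcdh18 had 9.98, 7.20, 7.55 and 9.27 CPM in intact and 18.5, 21.3, 19.2 and 17.2 CPM in null proliferating libraries (log2 1.16 ± 0.15, adjusted p = 3.9e-05, no overlap), and means of 9.58 and 8.64 CPM in intact and null differentiating cells (-0.15 ± 0.15, adjusted p = 0.44). Pcdh7 was at 49.6 to 62.8 CPM in intact and 88.2 to 113 CPM in null proliferating libraries (0.83 ± 0.14, adjusted p = 0.00035). In differentiating cells its order turned, at 103 to 167 CPM in intact and 64.9 to 80.6 CPM in null libraries (-0.76 ± 0.14, adjusted p = 0.00043). Pcdh17 was not called in either condition (-0.15 ± 0.17 and -0.08 ± 0.17), and Pcdh9 was called only in proliferating cells (0.53 ± 0.17, adjusted p = 0.019; 0.062 to 0.065 without intact proliferating replicate 2, 3 or 4).

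**Figure D3:**
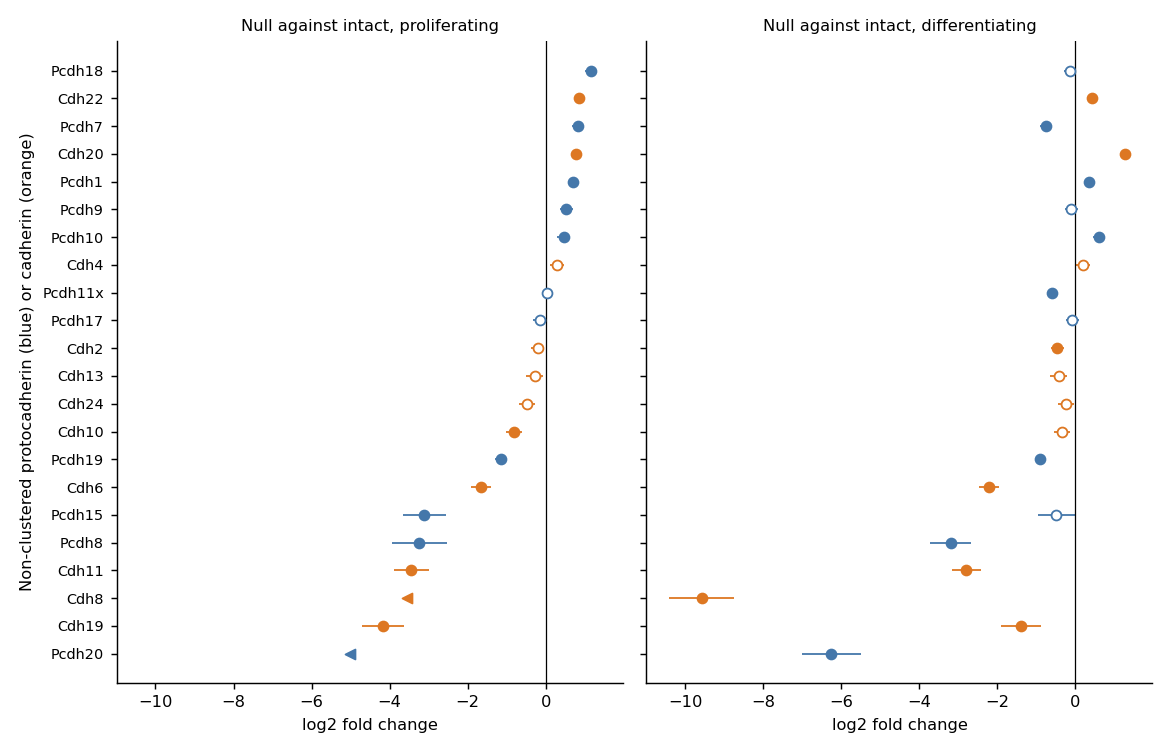
Log2 fold change (horizontal axes, bars are ± SE) of null against intact cells for the 11 non-clustered protocadherins (blue) and 11 tested cadherins (orange), in proliferating (left) and differentiating cells (right), ordered by the left panel. Filled points passed the test, triangles mark bounds against a floor of 3 counts, and Cdh8 and Pcdh20 lie lowest on the right.

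Of the 12 cadherins 11 were tested. In null cells 2 rose (Cdh20 and Cdh22) and 5 fell in each condition, where Cdh6, Cdh8, Cdh11 and Cdh19 fell in both, Cdh10 in proliferating cells and Cdh2 in differentiating cells. Of all genes 19.7% fell and 19.0% rose in proliferating cells, and 22.0% fell and 24.3% rose in differentiating cells, so that the 2 that rose are no more than these shares.

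Of the type I cadherins, Cdh2 was called in differentiating cells and Cdh4 in neither condition. Cdh2 had 236, 176, 179 and 183 CPM in intact and 188, 177, 182 and 128 CPM in null proliferating libraries, which overlapped (-0.20 ± 0.17, adjusted p = 0.38). Differentiating cells had 402, 243, 271 and 214 CPM in intact against 205, 195, 209 and 206 CPM in null libraries. The log2 fold change of -0.47 ± 0.17 (adjusted p = 0.032) fell to -0.25 without intact differentiating replicate 1 (adjusted p = 0.12), and leaving out any null differentiating library also ended the call (0.056 to 0.073). Cdh4 (R-cadherin) was at 256 ± 37.5 CPM in intact and 314 ± 7.72 CPM in null proliferating cells, and at 82.8 ± 27.7 and 94.7 ± 10.2 CPM in differentiating cells. Its estimates of 0.30 ± 0.18 and 0.19 ± 0.18 were not called, and the second was 0.44 without intact differentiating replicate 1 (adjusted p = 0.014). The anchored Cdh13 (-0.28 ± 0.22 and -0.43 ± 0.22) was not called either.

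Cdh11 (chr8:102632095-102785493, minus strand, GRCm38), a type II cadherin of mesenchyme and of developing brain, had 47.8, 12.8, 13.5 and 11.8 CPM in intact and 2.30, 1.91, 2.16 and 1.56 CPM in null proliferating libraries. In differentiating cells the values were 96.2, 121, 151 and 143 CPM in intact and 14.3, 14.4, 21.8 and 23.1 CPM in null libraries. The groups lay apart in both conditions, by log2 -3.44 ± 0.44 (adjusted p = 2.9e-05) and -2.79 ± 0.38 (adjusted p = 3.6e-05). Without intact proliferating replicate 1 the proliferating difference was 6.43-fold in place of 10.9-fold. Fibroblast and meningeal markers summed to 161, 65.4, 34.8 and 20.6 CPM in the intact differentiating libraries, in the same order as the Cdh11 values. In null differentiating libraries they summed to 2.38 to 11.8 CPM. Intact proliferating replicate 1 had 11.9 CPM of these markers, within the 10.01 to 12.9 CPM of its group. The part of such cells in the Cdh11 difference was not tested.

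Cdh8, a cadherin of cortical and striatal neurons, had 18.9, 9.34, 9.16 and 5.75 CPM in intact differentiating libraries. Null differentiating libraries had 2 counts, both in replicate 4, which is 0.127% of the intact level (95% counting interval 0.0153 to 0.458%, adjusted p = 2.8e-06). In proliferating cells the intact libraries held 28 counts in all and the null libraries none, so Cdh8 was at least 11.7-fold lower against 3 counts as the group's floor (adjusted p = 0.0034). Cdh7, which was not tested, had 126 counts over the intact and none over the null differentiating libraries. Cdh7 and Cdh8 met the count rule through intact libraries alone (4 and 5 libraries), so their membership lends no support to the difference.

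Cdh6 was at 6.28 to 8.53 CPM in intact and 1.36 to 3.59 CPM in null proliferating libraries, and at 12.4 to 21.9 CPM and 2.94 to 4.41 CPM in differentiating ones. It fell without overlap in both conditions (log2 -1.65 ± 0.26, adjusted p = 0.00020, and -2.21 ± 0.26, adjusted p = 9.5e-06). Cdh10 fell in proliferating cells (-0.81 ± 0.21, adjusted p = 0.0061), where null replicate 4 at 31.1 CPM overlapped the intact libraries (30.4 to 42.0 CPM) and the other 3 null libraries were at 16.02 to 17.5 CPM. In differentiating cells its estimate was -0.36 ± 0.20 (adjusted p = 0.17). Cdh24 was called in neither condition.

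Cdh19 (chr1:110888002-110977601, minus strand), known from glia and the neural crest lineage, was mostly a gene of intact proliferating cells. It had 5.28, 11.9, 12.3 and 15.4 CPM there and 0.488, 0.493, 0.999 and 0.510 CPM in null proliferating libraries, with no overlap. This is 18.0-fold lower (log2 -4.17 ± 0.54, adjusted p = 3.1e-05). In differentiating cells levels were low in both genotypes, at 0.893 to 1.83 CPM and 0.0613 to 0.870 CPM. The difference there of -1.39 ± 0.52 (adjusted p = 0.039) was not called when intact replicate 2 or 4, or null replicate 1 or 2, was left out (0.070 to 0.098).

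Cdh20 (chr1:104768340-104995481, plus strand) and Cdh22, type II cadherins of neural tissue, were higher in null cells. Cdh20 had 119.9, 156, 151 and 151 CPM in intact and 240.5, 243, 233 and 276 CPM in null proliferating libraries, and 29.1, 40.9, 40.9 and 45.6 CPM in intact against 92.6, 94.3, 97.5 and 92.2 CPM in null differentiating libraries. All null libraries were higher, by log2 0.78 ± 0.11 (adjusted p = 8.9e-05) and 1.27 ± 0.12 (adjusted p = 9.9e-07). Cdh22 was at 40.2 to 47.1 CPM in intact and 67.9 to 87.0 CPM in null proliferating libraries (0.85 ± 0.11, adjusted p = 2.9e-05). In differentiating cells it was at 9.21 ± 0.75 CPM in intact and 12.3 ± 1.90 CPM in null cells, where null replicate 2 overlapped the intact libraries (0.41 ± 0.11, adjusted p = 0.0071).

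**Figure D4:**
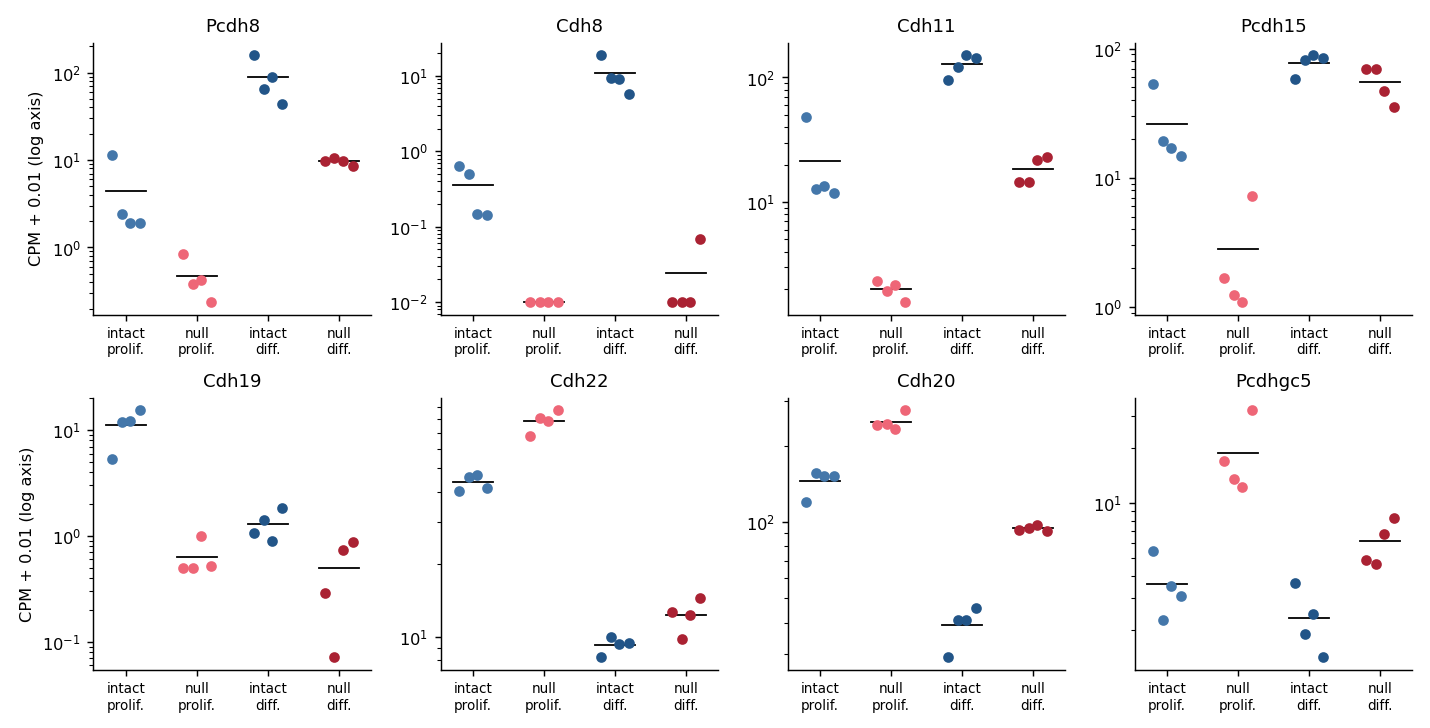
Level of 8 members in each library (CPM + 0.01 on log axes) in the 4 groups, with a point per library and the group mean as a line. Null libraries lie below intact ones in both conditions for Pcdh8, Cdh8, Cdh11 and Cdh19, above them for Cdh20 and Pcdhgc5, and Pcdh15 is low only in null proliferating libraries.

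Some genes of the family outside the count rule also had unequal counts. Cdh12 had 286 and Cdh9 had 90 counts over the intact differentiating libraries and none over the null ones, and Cdh18 had 221 against 3. Most of the Cdh12 counts lay in 1 library (224 of 286), as did most of those of Cdh18 (161 of 221). Cdh1 (E-cadherin) had 55 counts in intact and 3 in null differentiating libraries. Cdh5, the endothelial cadherin, had 5 counts over all libraries, and Cdh16 had none. These genes were too low for testing.

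Upon differentiation of intact cells 65 of 78 members rose and 5 fell, where 36.7% of all genes rose, 35.3% fell and 72.0% changed. In null cells 49 rose and 10 fell, against 34.6%, 34.4% and 69.0% of all genes. All 21 beta genes rose in both genotypes with no overlap between libraries (31.1% and 33.8% of all genes lay apart with higher levels, 31.8% and 33.2% with lower levels, and 62.8% and 67.0% in either direction). Their log2 fold changes ran from 1.12 to 3.81 in intact and from 0.90 to 4.03 in null cells, and these counts of 21 held with any library left out. The summed beta level rose 3.81-fold in intact and 3.88-fold in null cells. Pcdhb9 rose most, from 1.07 ± 0.34 to 15.05 ± 4.70 CPM in intact cells (log2 3.81 ± 0.43, adjusted p = 1.6e-06) and from 1.93 ± 1.51 to 32.6 ± 7.58 CPM in null cells (4.03 ± 0.41, adjusted p = 5.0e-07, and 4.79 without null proliferating replicate 4).

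All 11 alternate alpha genes rose upon differentiation in both genotypes, by log2 2.49 to 5.32 in intact and 1.18 to 3.20 in null cells. With single libraries left out, 8 to 11 alpha genes rose in null cells. Pcdha3 and Pcdha5 met the count rule without any intact proliferating library. Pcdha1, Pcdha6 and Pcdha8 met it through 5, 9 and 8 of the 16 libraries. Membership of such genes therefore lends no support to their rise. Pcdha3 rose from 0.0977 to 3.84 CPM in intact cells, which had 8 counts while proliferating, or 2.36% of the level after differentiation (95% counting interval 1.01 to 4.68%). Its log2 change of 5.32 was 6.90 without intact proliferating replicate 1 and 4.28 without intact differentiating replicate 1. The C-type genes did not share this direction. In null cells 4 of the 5 fell and none rose, among them Pcdhac2 from 28.8 ± 5.93 to 10.5 ± 1.02 CPM (log2 -1.46 ± 0.30, adjusted p = 0.00048) and Pcdhgc5 from 18.8 ± 9.31 to 6.14 ± 1.73 CPM (-1.61 ± 0.35, adjusted p = 0.00084). In intact cells 2 of the 5 rose and 1 fell. Pcdhgc3 fell in both genotypes, by 0.43 ± 0.11 (adjusted p = 0.0019) and 0.35 ± 0.11 (adjusted p = 0.0083) on the log2 scale. Of the 19 gamma A and B genes 17 rose in intact cells, and in null cells 8 rose and 1 fell. Without null differentiating replicate 4, 5 gamma genes rose in null cells.

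Non-clustered protocadherins mostly rose too, 10 of 11 in intact and 7 of 11 in null cells. Pcdh8 rose 20.4-fold in intact and 20.9-fold in null cells (log2 4.35 ± 0.56, adjusted p = 6.9e-06, and 4.38 ± 0.67, adjusted p = 3.6e-05), at levels that differed 9.21-fold after differentiation. Without intact proliferating replicate 1 the intact value was 43.4-fold. Among the cadherins, Cdh11 rose 5.96-fold and 9.33-fold in intact and null cells (10.1-fold in intact cells without proliferating replicate 1), whereas Cdh4, Cdh20 and Cdh22 fell in both. Cdh22 fell 4.75-fold in intact and 6.40-fold in null cells (log2 -2.25 ± 0.11, adjusted p = 3.2e-10, and -2.68 ± 0.12, adjusted p = 1.4e-10). Cdh8 rose from 28 to 1338 counts over the intact libraries (log2 4.98 ± 0.58, adjusted p = 9.0e-06), and it was at 0 and 2 counts in null cells, where no fold is given.

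**Figure D5:**
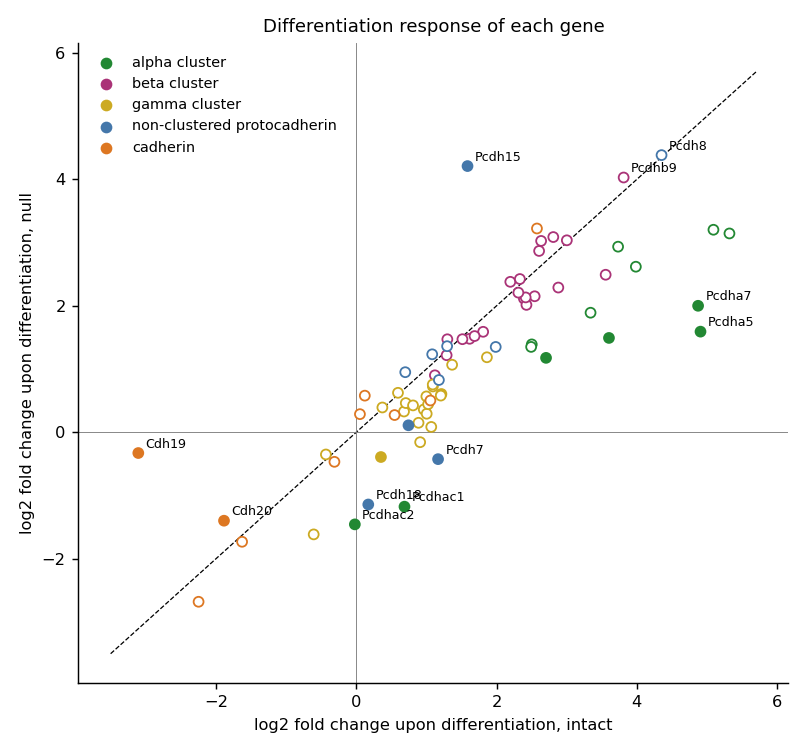
Log2 fold change upon differentiation in intact (horizontal axis) and null cells (vertical axis) for the 76 tested members with counts in null proliferating cells, coloured by class, with filled points where the interaction passed the test and a dashed line of equal response. Beta genes lie along the line and above 0 on both axes, alternate alpha genes lie below the line, and Pcdh15 and Cdh19 lie above it.

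The response to differentiation was compared between the genotypes by an interaction term, the null response minus the intact response. It was called for 14 of 78 members, 3 higher and 11 lower, where 12.7%, 9.93% and 22.7% of all genes were higher, lower or either. Counts of members lower in the null response depended on single libraries, at 19 without intact proliferating replicate 1 and at 6 to 7 without any of 7 other libraries. No beta gene was called by edgeR or DESeq2 (1 had an unadjusted p under 0.05), and Pcdhb8 was called without intact proliferating replicate 1 (adjusted p = 0.010).

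For 6 alpha genes the null response lay below the intact one: the 2 C-type genes fell in null cells, and 4 alternate genes rose in both genotypes. Pcdhac1 rose by 0.69 ± 0.28 in intact cells (adjusted p = 0.040, and 0.138 without intact differentiating replicate 1) and fell by 1.18 ± 0.24 in null cells (interaction -1.86 ± 0.37, adjusted p = 0.0026), and Pcdhac2 was not called in intact cells (-0.02 ± 0.29) and fell in null cells as given above (interaction -1.44 ± 0.42, adjusted p = 0.023). Pcdha5, Pcdha7 and Pcdha11 had interactions of -3.31 ± 1.08, -2.87 ± 0.88 and -2.11 ± 0.69 (adjusted p = 0.039, 0.030 and 0.038), and the sixth was Pcdha12 (-1.53 ± 0.53, adjusted p = 0.049). These calls of alternate genes are near the threshold. Pcdha5 lost it without any of 10 libraries (0.052 to 0.080), Pcdha7 without any of 7 (0.051 to 0.068), Pcdha11 without any of 12 and Pcdha12 without any of 13. In all, 2 or 3 alpha genes were called without 9 of the 16 libraries in turn. In the gamma cluster Pcdhgb2 (-0.74 ± 0.16, adjusted p = 0.0048) and Pcdhga3 (-0.61 ± 0.20, adjusted p = 0.040) were called. Their count of 2 was 7 without intact proliferating replicate 1, 4 without intact differentiating replicate 4, and 1 without any 1 of 10 other libraries.

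Pcdh7 (-1.59 ± 0.20, adjusted p = 0.00013), Pcdh18 (-1.31 ± 0.22, adjusted p = 0.00075) and Pcdh11x (-0.63 ± 0.17, adjusted p = 0.015) also had a null response below the intact one. Pcdh18 was not called in intact cells (0.17 ± 0.15) and fell by 1.14 ± 0.15 on the log2 scale in null cells, from 19.1 to 8.64 CPM. Pcdh11x rose in intact cells by 0.74 ± 0.12 and was not called in null cells (0.11 ± 0.12). Pcdh7 rose in intact cells by 1.17 ± 0.14 and fell in null cells by 0.42 ± 0.14 on the log2 scale, the latter not being called without null proliferating replicate 4 (-0.34, adjusted p = 0.053). Pcdh15 responded more in null cells, by log2 4.21 ± 0.57 against 1.59 ± 0.49 (interaction 2.62 ± 0.72, adjusted p = 0.017), or 3.77 without null proliferating replicate 4 and 2.01 without intact proliferating replicate 1. Its null response was 5.36 without the former library and its intact response 2.19 without the latter. Cdh19 fell by 3.11 ± 0.50 in intact cells and by 0.33 ± 0.55, which was not called, in null cells (interaction 2.78 ± 0.73, adjusted p = 0.014). Cdh20 fell by 1.88 ± 0.12 and 1.40 ± 0.11 (interaction 0.49 ± 0.16, adjusted p = 0.040). This call was lost without any 1 of 12 libraries (0.052 to 0.081), under both other scalings (0.052 each) and with no count filter (0.054) or a filter of 50 (0.059), and DESeq2 made it (0.032).

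Proteins that work with cadherins were read from lists chosen with earlier results of these data known. Their counts stand beside the shares of all genes given for the cadherins, with 38.6% changed in either direction in proliferating and 46.4% in differentiating cells. Of 10 catenins and associated genes tested, 1 rose and 4 fell in null proliferating cells, and 4 rose and 4 fell in null differentiating cells, with median log2 fold changes of -0.03 and 0.00 (all genes -0.01 and 0.04). Ctnna2 (the neuronal alpha catenin) fell from 26.1 ± 14.4 to 1.26 ± 0.91 CPM in proliferating cells (log2 -4.38 ± 0.46, adjusted p = 4.9e-06) and from 246 ± 28.5 to 40.7 ± 10.4 CPM in differentiating cells (-2.60 ± 0.36, adjusted p = 4.1e-05). Arvcf, which binds the juxtamembrane part of cadherins, fell in both (-1.73 ± 0.17 and -1.05 ± 0.16). Ctnnb1 (beta catenin) was not called in proliferating cells and rose by 0.36 ± 0.07 in differentiating cells (adjusted p = 0.00086).

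Of 20 regulators of the clusters tested (CTCF, cohesin and its loaders, DNA methyltransferases and silencers), none rose and 5 fell in null proliferating cells, and 5 rose and 1 fell in null differentiating cells. The 5 that fell and the 5 that rose are close to the shares of all genes, and the counts in the opposite directions are below them. Ctcf fell from 233 ± 12.1 to 196 ± 16.05 CPM in proliferating cells (-0.25 ± 0.06, adjusted p = 0.0067). Smchd1, a silencer of clustered protocadherin genes, rose in differentiating cells from 120 ± 4.84 to 142 ± 5.39 CPM (0.25 ± 0.06, adjusted p = 0.0050). Of 14 other members of the cadherin superfamily tested, 1 rose and 5 fell in each condition, and these 6 of 14 are close to the shares of all genes that changed. Clstn2 (a calsyntenin of synapses) was at 28.8 ± 29.2 CPM in intact and 0.0849 ± 0.0501 CPM in null differentiating cells (log2 -8.33 ± 0.82, adjusted p = 1.9e-06). Of 8 cadherin switch regulators listed (Zeb, Snai and Twist genes among them), 5 had enough counts for testing. Of these 5, 2 fell in proliferating cells, and 1 rose and 1 fell in differentiating cells. Of 17 cytoplasmic partners and sheddases, 2 rose and 6 fell in null proliferating cells, and 3 rose and 7 fell in null differentiating cells. These 8 and 10 of 17 are somewhat above the shares of all genes that changed, and nothing particular to the list is read from them. Adam10, the protease that sheds N-cadherin and gamma protocadherins, rose in both (0.44 ± 0.06, adjusted p = 6.5e-05, and 0.31 ± 0.06, adjusted p = 0.00094).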

How the data were processed

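RNA sequencing libraries (polyadenylated RNA, 75-base paired-end reads) fell into 4 groups of 4. The authors deposited 1 table per library, with unnormalised counts of reads for each gene and the gene's length (in bases) as named in its header. Counting was done with featureCounts against mm10 per the submitters' processing notes. The sources used here do not give versions, aligner, annotation or strandedness, and reads from genes that overlap, or lie antisense to each other, cannot be told apart. Of 27179 identifiers, 25275 matched a symbol in the RefSeq table of GRCm38.p6. No 2 libraries of a group were copies (lowest chi-square per gene 1.78). Replicates 2 and 3 were the closest pair in intact (1.78) and in null proliferating cells (2.96). Intact proliferating replicate 1 differed from the others of its group by 37.8 to 46.6. Whether the close pairs are fully separate isolates was not tested.

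The fit covered all genes (edgeR 4.0.16 in R 4.3.3): filterByExpr with a minimum count of 10 (15177 genes), TMM scaling, 1 mean per group over 16 libraries, no covariate, quasi-likelihood tests, and Benjamini-Hochberg adjustment over all genes tested. Each SE is the unshrunk log2 fold change over the square root of F. P-values measure the spread between libraries of these groups, each taken as a separate isolate. Counting intervals (95%) and the floor of 3 counts cover counting error only. The fit was tested on simulated data. Alternatives were DESeq2 1.42.0, other scalings and filters, a test against 1.5-fold, replicate blocks, and leaving out libraries, of which the joint removal of 2 intact libraries was chosen after seeing the data. Equal replicate numbers were not taken to pair the libraries.

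Members, lists and tests were chosen with earlier results of these data known. Members described with full statistics were drawn from called genes with the largest change per direction, 8 in the genotype comparisons and 4 in the others. The type I cadherins were added. Except for the interaction, the higher group had to average 2 CPM or more. Overlap between groups was not a criterion. Others were named after their values were seen. A combined table of the same counts was not used.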

Additional observations from a re-analysis of the deposited data

Results flagged for a closer look

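Libraries are given here that lay apart from the other 3 of their group, meaning that the gap to the nearest library took up more of the group's range than Dixon's 95% critical value allows for 4 samples. This held for 29 of 152 groups of values checked (19.1%), where chance gives about 1 in 20.

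Intact proliferating replicate 1 was high for Cdh11 (47.8 CPM, others 11.8 to 13.5 CPM), Pcdh8 (11.3 CPM, others 1.89 to 2.38 CPM), Pcdh15 (52.7 CPM, others 14.7 to 19.3 CPM), Pcdhb3 (1.74 CPM, others 0.900 to 0.921 CPM), Pcdhga9 (5.77 CPM, others 2.53 to 3.06 CPM) and Cdh2 (236 CPM, others 176 to 183 CPM). It was low for Cdh20 (119.9 CPM, others 151 to 156 CPM) and Cdh4 (199 CPM, others 273 to 277 CPM). The alpha cluster sum of 28.2 CPM (others 14.6 to 16.8 CPM), the alpha effective number of 3.51 (others 2.001 to 2.19) and the gamma effective number of 4.59 (others 3.11 to 3.17) were also high in it. In intact proliferating replicate 3 Pcdhb13 was at 0.414 CPM.

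Null proliferating replicate 4 was high for Pcdhb11 (9.02 CPM, others 2.90 to 3.74 CPM), Pcdhb5 (8.16 CPM), Pcdhb13 (2.15 CPM), Pcdhb9 (4.17 CPM), Pcdhb3 (3.15 CPM), Pcdh15 (7.23 CPM), Cdh10 (31.1 CPM) and the beta cluster sum (140.3 CPM, others 93.9 to 97.0 CPM), and low for Pcdhga4 (3.09 CPM, others 5.67 to 5.95 CPM). In null proliferating replicate 3 Cdh19 was at 0.999 CPM, and in replicate 1 Pcdha7 was at 0.558 CPM.

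In intact differentiating replicate 1, Pcdh19 (50.1 CPM, others 33.6 to 35.4 CPM), Pcdhb9 (22.0 CPM, others 11.8 to 13.2 CPM) and Pcdhb3 (10.8 CPM, others 5.39 to 6.03 CPM) stood high, and in replicate 2 the gamma cluster sum stood low (676 CPM, others 695 to 698 CPM). In null differentiating cells Cdh8 had counts only in replicate 4 (0.0580 CPM), and Pcdhga4 was low in replicate 1 (5.65 CPM, others 8.12 to 8.47 CPM). The cause was not tested for any of these libraries.

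The interaction term in edgeR called 3 members higher and 11 lower. Given here are the 3 higher ones and the 4 with the lowest log2 values. These values were -3.31 for Pcdha5, -2.87 for Pcdha7, -2.11 for Pcdha11, -1.86 for Pcdhac1, 2.62 for Pcdh15, 0.49 for Cdh20 and 2.78 for Cdh19 (log2, null response minus intact response). The other called members are described in the Results, as is the loss of several of these calls when single libraries were left out.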

How the results depend on the processing

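No called value of a member turned its direction under the alternatives run. Over members, comparisons and alternatives, 9566 values stayed on their side of the threshold, 343 lost the call and 127 gained one. Tested against 1.5-fold, 9 members were higher in null proliferating cells, and the number lower there is not given. In null differentiating cells 4 were higher and 9 lower, so at most 4 of the 15 beta genes called higher there remained. The interaction had 0 higher and 3 lower. A stricter hypothesis calls fewer. With single libraries left out, members higher and lower in null cells numbered 27 to 39 and 9 to 11 in proliferating cells, and 15 (without intact differentiating replicate 3) to 27 and 19 to 22 in differentiating cells. Those higher and lower after differentiation numbered 63 to 67 and 5 to 8 (8 without intact differentiating replicate 1) in intact cells, and 45 to 50 and 9 to 11 in null cells. The interaction gave 2 to 4 higher and 6 to 19 lower. With replicate 1 of both intact groups left out together, chosen after seeing the data, 17 were lower, and the genotype counts were 40 and 10, and 33 and 19. Causes of these shifts were not tested.

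Scaling by library size alone gave 30 higher and 11 lower members in proliferating cells and 19 and 21 in differentiating cells. It moved the share of higher calls among all genes from 49.1 to 36.7% and from 52.5 to 39.4%. DESeq2 called 36 and 11, and 25 and 21. Thinned, the beta effective number in null differentiating cells was 17.6, and on library totals the gamma sum in intact differentiating cells was 729 CPM.

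The labels do not say whether equal replicate numbers mark the same foetus. Correlations of same-numbered proliferating and differentiating libraries were 0.117 to 0.126 in 3 intact pairs, -0.231 in the other, and -0.0284 to 0.0331 in null cells. Of the 8 numbers 1 correlated best with itself, so the numbers were not used as pairs. With the isolate as a replicate block 17 members were lower in the interaction, and Pcdh15 had an adjusted p of 0.053. Depth limits genes with few counts such as Pcdh20, Cdh8 and the alternate alpha genes.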
